A study of Homo sapiens with 9 samples.

Results

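The mRNAs of 10 genes of transforming growth factor beta (TGF-beta), bone morphogenetic protein (BMP), inhibin and ID signalling were followed in 22Rv1 cells, an established human prostate cancer line, after knockdown of CHD9, a chromodomain helicase. The genes were TGFB1, INHBB, BMP2, BMP4, LTBP3, SMAD6, SMAD7, ID1, ID2 and ID3, picked by symbol from the 67071 genes of the count table with earlier results of these data known, so counts over them are descriptions. Libraries of polyadenylated RNA were labelled as CHD9 knockdown by a first short hairpin (hairpin 1, 3 libraries), as CHD9 knockdown by a second (hairpin 2, 3 libraries) and as wild type with a hairpin against GFP (shGFP, 3 libraries). All 9 libraries came from the same line in the same serum-containing medium, with no ligand or inhibitor of the pathway named in the labels, and no hairpin-free cells were analysed here. The labels do not say whether the replicates were separate cultures, so p-values measure the spread between these libraries only, which may be technical.

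TGF-beta, activin and BMP ligands are secreted dimers that bring type I and type II receptor kinases together at the cell surface. The type I receptors for TGF-beta and activin phosphorylate SMAD2 and SMAD3, those for BMP phosphorylate SMAD1, SMAD5 and SMAD9, and both kinds of SMAD enter the nucleus with SMAD4. SMAD6 and SMAD7 are inhibitory SMADs that the pathway itself induces, and the ID genes, classical targets of BMP signalling, encode proteins that bind bHLH transcription factors and keep them off DNA. In prostate epithelium TGF-beta is known as a growth inhibitor, a response that many prostate cancer cells have lost.

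The libraries held 18911142 to 31968602 counts. CHD9 itself was lower with hairpin 1, at 14.8, 16.7 and 14.9 CPM (counts per 1e6 of the library total, scaled by the trimmed mean of M-values), and with hairpin 2, at 18.3, 18.8 and 19.3 CPM, than in shGFP cells, at 22.8, 20.5 and 23.2 CPM. The log2 fold change of CHD9 was -0.52 (SE 0.07) with hairpin 1 and -0.24 (SE 0.07, adjusted p = 0.0060 in edgeR's quasi-likelihood test with Benjamini-Hochberg adjustment) with hairpin 2, so CHD9 mRNA was reduced but present in every knockdown library. The 9 luminal prostate markers examined had counts in every library, with KRT8, a keratin of luminal cells, at 283 to 336 CPM. The basal marker KRT5, the endothelial marker CDH5 and the T cell marker CD3E had 0 counts in all 9 libraries, and the summed markers of each of these classes, which include others with a few counts, reached at most 0.105 CPM for 3 basal, 0.267 CPM for 3 endothelial and 0.246 CPM for 4 leukocyte markers. The luminal markers summed to 2167 to 2198 CPM with hairpin 1, 2083 to 2102 CPM with hairpin 2 and 1956 to 1991 CPM in shGFP cells, without overlap, and their part in the results that follow was not tested.

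Promoter sequences are shown for the genes with the largest called changes in each direction among those with a reference window, a pair that rose with CHD9 knockdown (INHBB and TGFB1) and a pair that fell (ID1 and ID2). Each window is RefSeq sequence of GRCh38.p14, 300 bases on the gene's strand that run across RefSeq's annotated start and lie mostly before it: INHBB at chr2:120345886-120346185 on the plus strand, TGFB1 at chr19:41353873-41354172 on the minus strand, ID1 at chr20:31605039-31605338 on the plus strand and ID2 at chr2:8681806-8682105 on the plus strand. For ID2 that start lies inside the gene as GENCODE 29 draws it, downstream of its outermost end. Capitals mark letters known from SMAD binding, the GC-rich element GGCGCC, which reads the same on both strands, and the SMAD box GTCT, which reads AGAC on the other strand. The motifs share no letters in the windows printed.
INHBB: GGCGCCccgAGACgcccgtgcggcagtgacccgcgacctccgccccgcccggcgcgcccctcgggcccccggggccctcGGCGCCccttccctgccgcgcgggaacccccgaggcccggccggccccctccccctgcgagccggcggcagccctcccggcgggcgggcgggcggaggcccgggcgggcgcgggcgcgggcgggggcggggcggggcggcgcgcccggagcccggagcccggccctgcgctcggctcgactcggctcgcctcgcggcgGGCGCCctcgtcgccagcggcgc
TGFB1: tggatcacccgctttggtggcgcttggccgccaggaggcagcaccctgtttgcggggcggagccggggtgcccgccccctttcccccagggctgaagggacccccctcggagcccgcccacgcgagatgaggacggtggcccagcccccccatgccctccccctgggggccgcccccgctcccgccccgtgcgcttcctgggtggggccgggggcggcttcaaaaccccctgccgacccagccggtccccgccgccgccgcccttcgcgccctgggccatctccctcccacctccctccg
ID1: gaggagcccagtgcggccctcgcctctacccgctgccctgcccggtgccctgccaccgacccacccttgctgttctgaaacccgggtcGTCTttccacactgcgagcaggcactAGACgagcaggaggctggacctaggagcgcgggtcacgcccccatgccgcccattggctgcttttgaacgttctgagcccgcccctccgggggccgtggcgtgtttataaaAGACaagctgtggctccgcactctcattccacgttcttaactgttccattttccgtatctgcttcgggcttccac
ID2: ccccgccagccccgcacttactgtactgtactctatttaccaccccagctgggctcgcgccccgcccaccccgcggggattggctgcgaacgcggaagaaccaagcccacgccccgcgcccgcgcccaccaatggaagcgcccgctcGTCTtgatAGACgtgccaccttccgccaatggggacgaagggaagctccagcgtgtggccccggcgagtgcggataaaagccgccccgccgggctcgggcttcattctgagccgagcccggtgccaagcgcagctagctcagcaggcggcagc
The INHBB window held GGCGCC 3 times and GTCT at 1 site, and the TGFB1 window held neither. GTCT was found 3 times in the ID1 window and 2 times in the ID2 window. Of the 10 genes, 9 had 14 windows in all, BMP2 having none. GGCGCC was in 2 of these 14 windows and GTCT in 12, while 19.2% and 84.0% of the 35116 promoter windows of the reference held them. The E-box CAGCTG, of the kind that bHLH factors bind, was in 1 member window, that of ID2, and in 17.9% of all windows. These are matches of letters only, and GTCT was found in windows of genes that rose and of genes that fell.

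After CHD9 knockdown the ligand genes moved in different directions. INHBB and TGFB1 were higher with both hairpins, BMP2 was lower with both, and BMP4 was close to the limit of detection. INHBB changed most of the 10 genes, by 3.11-fold with hairpin 1 and 2.46-fold with hairpin 2, and BMP2 was at 0.452 and 0.601 of its shGFP level. The level of each gene in each library is drawn for the 9 genes that could be tested.

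**Figure D1:**
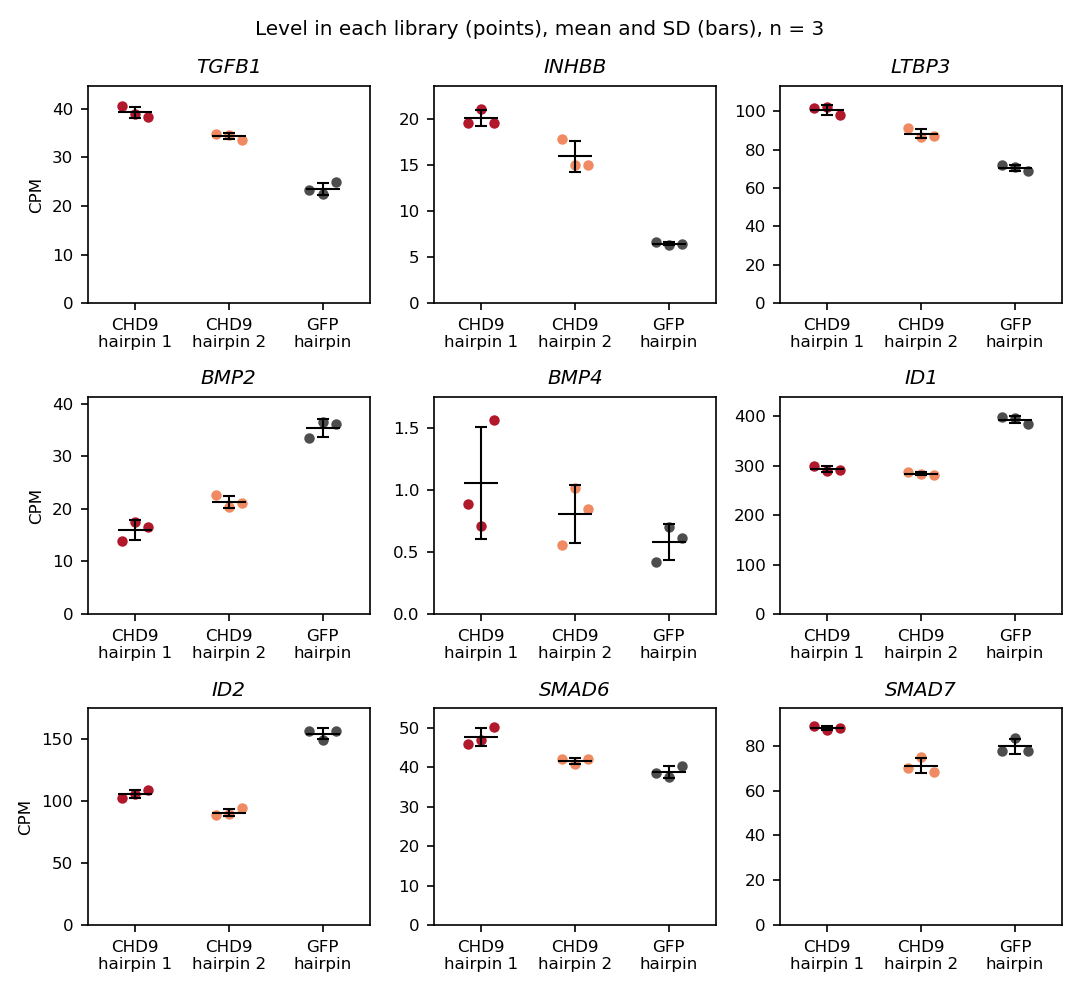
Level of 9 genes in CPM (vertical axes from 0, scales differ between panels) in each library, with hairpin 1, hairpin 2 and the GFP hairpin from left to right. Points are libraries and bars are the mean and SD of 3 libraries. INHBB, TGFB1 and LTBP3 stood above the GFP hairpin with both CHD9 hairpins, BMP2, ID1 and ID2 stood below it, and SMAD7 stood above it with hairpin 1 and below it with hairpin 2.

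INHBB (chr2:120346143-120351808, plus strand, GENCODE 29 on GRCh38) encodes the beta B subunit, which forms activin B as a dimer of itself and inhibin B with the alpha subunit. It had 19.6, 21.1 and 19.6 CPM with hairpin 1 and 17.8, 14.97 and 14.98 CPM with hairpin 2, against 6.62, 6.35 and 6.42 CPM in shGFP cells. All 6 knockdown libraries stood above all 3 shGFP libraries, and hairpin 1 stood above hairpin 2 without overlap. The log2 fold change was 1.64 (SE 0.09) with hairpin 1 and 1.30 (SE 0.09) with hairpin 2, with adjusted p of 1.8e-19 and 1.6e-15 in edgeR's quasi-likelihood test. Among all 16855 genes tested it was the 70th highest in the mean of both hairpins. In bulk RNA a change in the share of cells that make a transcript and a change in its amount per cell cannot be told apart, here and in each result that follows. INHA, which encodes the alpha subunit of the inhibins, was too scarce to measure well. It had 10, 2 and 5 counts with hairpin 1 and 10, 18 and 9 counts with hairpin 2, against 10, 2 and 6 counts in shGFP cells. Its log2 fold change was 0.34 (SE 0.50, 95% interval -0.67 to 1.34) in the mean of both hairpins and was not called.

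Closest to INHBB in their pair of log2 fold changes were PRKCA, SLC35F1, SHANK1, ATP2B3 and SYT12. They were sought among 10647 other tested genes with a mean of 5 CPM or more. Genes without a symbol or with clone, LINC, LOC, antisense or open reading frame names were passed over. Likeness was the Euclidean distance over the 2 hairpin contrasts, which share the shGFP libraries. PRKCA, a protein kinase C isoform, was nearest at a distance of 0.09, with log2 fold changes of 1.65 with hairpin 1 and 1.39 with hairpin 2, and the other 4 lay at 0.22 to 0.26.

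TGFB1 (chr19:41301587-41353911, minus strand) encodes TGF-beta 1, which is secreted in a latent complex. It had 40.5, 39.0 and 38.4 CPM with hairpin 1 and 34.8, 34.7 and 33.6 CPM with hairpin 2, against 23.4, 22.4 and 24.9 CPM in shGFP cells. The 3 groups did not overlap at any point. Relative to shGFP cells TGFB1 rose by 0.73 (SE 0.06) with hairpin 1 and 0.54 (SE 0.06) with hairpin 2 on the log2 scale, that is 1.66-fold and 1.46-fold, with adjusted p of 1.0e-14 and 1.6e-10 by edgeR. TGFB1 shares 215 of its 3238 exonic bases (6.64%) with HNRNPUL1 on the other strand, a gene at 408 CPM. The strand setting of the counting is not given in the sources used here. HNRNPUL1 was itself higher by 0.15 with hairpin 1 and 0.20 with hairpin 2 on the log2 scale, less than TGFB1, and its part in the TGFB1 counts was not tested.

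BMP2 (chr20:6767664-6780280, plus strand), a BMP ligand named for bone formation, moved the other way. It had 13.9, 17.5 and 16.5 CPM with hairpin 1 and 22.6, 20.3 and 21.2 CPM with hairpin 2, against 33.4, 36.5 and 36.2 CPM in shGFP cells. Every knockdown library lay below every shGFP library, and here too hairpin 1 lay further out than hairpin 2. Its log2 fold change was -1.15 (SE 0.07) with hairpin 1 and -0.74 (SE 0.07) with hairpin 2, with adjusted p of 3.7e-18 and 1.8e-12 by edgeR.

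BMP4 (chr14:53949736-53958761, minus strand), the close relative of BMP2, was barely transcribed, with 18, 16 and 42 counts with hairpin 1 and 14, 33 and 18 counts with hairpin 2, against 8, 16 and 16 counts in shGFP cells. These are 0.891, 0.711 and 1.56 CPM with hairpin 1, 0.555, 1.02 and 0.848 CPM with hairpin 2, and 0.421, 0.705 and 0.611 CPM in shGFP cells, where 3 counts, the floor that a count of 0 allows for counting error alone, come to 0.0924 to 0.158 CPM. The hairpin 1 libraries lay just above the shGFP libraries, and the hairpin 2 libraries overlapped them. The log2 fold change was 0.87 (SE 0.36, edgeR adjusted p = 0.043) with hairpin 1 and 0.47 (SE 0.37, adjusted p = 0.34) with hairpin 2. Without the third hairpin 1 library the value for hairpin 1 was 0.44 with an adjusted p of 0.43, without shGFP replicate 1 the adjusted p was 0.15 and without shGFP replicate 3 it was 0.085. The DESeq2 Wald test gave an adjusted p of 0.090 and voom with limma 0.068.

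**Figure D2:**
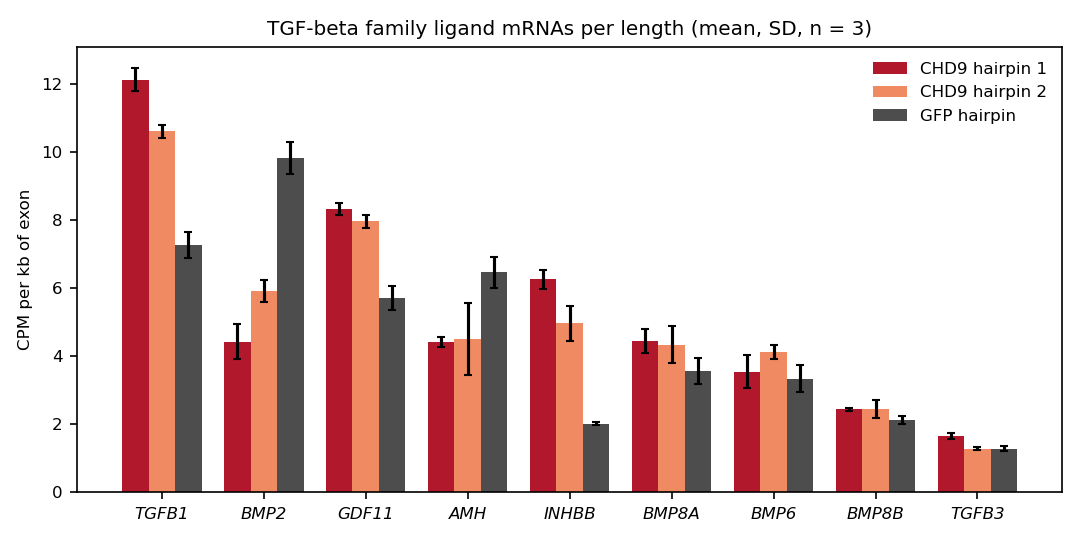
Mean level of 9 ligand mRNAs of the TGF-beta family in CPM per kb of exon (vertical axis from 0), with hairpin 1, hairpin 2 and the GFP hairpin from left to right in each cluster of bars and SD of 3 libraries as error bars. TGFB1 was the highest with each CHD9 hairpin and BMP2 in GFP hairpin cells.

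Per kb of exon, which allows levels of different genes to be compared roughly, the order of the ligand mRNAs differed between the groups. The length is that of all annotated exons of a gene, not of the mRNA made, so places between genes depend on the annotation. With hairpin 1 it began with TGFB1 at 12.1 ± 0.342 CPM per kb, GDF11 at 8.33 ± 0.183 and INHBB at 6.26 ± 0.277, and BMP2 was in place 5 at 4.43 ± 0.516 (SD, n = 3). With hairpin 2 it began with TGFB1 at 10.6 ± 0.198, GDF11 at 7.97 ± 0.202 and BMP2 at 5.93 ± 0.320, and INHBB followed at 4.97 ± 0.514. In shGFP cells BMP2 led at 9.83 ± 0.470 CPM per kb, followed by TGFB1 at 7.28 ± 0.384, AMH at 6.47 ± 0.462 and GDF11 at 5.70 ± 0.350, and INHBB was in place 8 at 2.02 ± 0.0449. With hairpin 1, BMP2 at 3.85 to 4.85 CPM per kb overlapped its neighbours BMP8A and AMH, and with hairpin 2 the INHBB libraries overlapped those of AMH, so these places are not settled. In shGFP cells the libraries of TGFB1, at 6.93 to 7.69 CPM per kb, overlapped those of AMH at 6.06 to 6.97, AMH overlapped GDF11, which reached 6.09, and INHBB, at 1.98 to 2.07, overlapped BMP8B above it, which went down to 1.99.

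LTBP3 (chr11:65538805-65558930, minus strand) encodes a latent TGF-beta binding protein, which tethers latent TGF-beta in the matrix. It had 102, 102 and 97.8 CPM with hairpin 1 and 91.0, 86.4 and 87.3 CPM with hairpin 2, against 71.7, 71.2 and 68.9 CPM in shGFP cells. The 3 groups lay apart in the same order as for TGFB1 and INHBB. With edgeR, LTBP3 had a log2 fold change of 0.51 (SE 0.04) with hairpin 1 and 0.32 (SE 0.04) with hairpin 2, with adjusted p of 1.0e-15 and 1.5e-09. LTBP3 is the most GC-rich of the 10 genes, with 67.8% G and C in its longest transcript. After removal of each library's trend on GC content and exonic length the values were 0.21 and 0.15, still called by edgeR with adjusted p of 1.7e-06 and 5.9e-04.

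The inhibitory SMADs did not move as a pair. SMAD6 (chr15:66702228-66782848, plus strand), which mainly restrains BMP signalling, had 46.1, 46.9 and 50.4 CPM with hairpin 1 and 42.1, 40.8 and 42.3 CPM with hairpin 2, against 38.7, 37.5 and 40.4 CPM in shGFP cells. All 6 knockdown libraries were above all 3 shGFP libraries, those of hairpin 2 by a narrow margin. Its log2 fold change was 0.30 (SE 0.05, adjusted p = 2.5e-06 by edgeR) with hairpin 1 and 0.10 (SE 0.05, adjusted p = 0.13) with hairpin 2. After the GC and length correction the value was 0.13 with hairpin 1, still called at an edgeR adjusted p of 0.034, and 0.07 in the mean of both hairpins, where the call was lost (adjusted p = 0.23, against 2.0e-04 without the correction).

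SMAD7 (chr18:48919853-48952052, minus strand), which restrains both TGF-beta and BMP receptors, had 88.6, 87.2 and 87.9 CPM with hairpin 1 and 70.2, 74.7 and 68.5 CPM with hairpin 2, against 77.7, 83.6 and 77.7 CPM in shGFP cells. The hairpin 1 libraries were all above the shGFP libraries and the hairpin 2 libraries all below them. The log2 fold change was 0.14 (SE 0.04, adjusted p = 0.0024 by edgeR) with hairpin 1 and -0.16 (SE 0.04, adjusted p = 0.0012) with hairpin 2, and in the mean of both it was -0.01 with a 95% interval of -0.08 to 0.06. After the GC and length correction the hairpin 1 value was -0.01 (edgeR adjusted p = 0.85) and the hairpin 2 value -0.24 (adjusted p = 5.8e-07), so the opposite movement did not hold under that setting while the difference between the hairpins did, at 0.23.

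ID1 and ID2 fell, and ID3 could not be tested. ID1 (chr20:31605283-31606515, plus strand) had 299, 289 and 290.3 CPM with hairpin 1 and 287, 283 and 281 CPM with hairpin 2, against 398, 396 and 384 CPM in shGFP cells. ID2 (chr2:8678845-8684453, plus strand) had 103, 106 and 109 CPM with hairpin 1 and 88.5, 89.1 and 94.0 CPM with hairpin 2, against 156, 149 and 157 CPM in shGFP cells. For both genes every knockdown library was below every shGFP library, with a gap several times the spread within groups. The log2 fold change of ID1 was -0.42 (SE 0.03) with hairpin 1 and -0.47 (SE 0.03) with hairpin 2, and that of ID2 was -0.54 (SE 0.03) and -0.77 (SE 0.03) in the same order, with edgeR adjusted p of at most 7.1e-18. ID2 shares 38 of 2205 exonic bases with its antisense gene ID2-AS1, which was at 3.76 CPM and was not called, with a log2 fold change of -0.12 in the mean of both hairpins.

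ID3 (chr1:23557918-23559794, minus strand) was essentially silent in this line, with 1 count in a single hairpin 2 library and 0 counts in the other 8, so it was below the filter on low counts. ID4, the remaining gene of the family, had 119, 128 and 126 CPM with hairpin 1 and 114, 116 and 109.6 CPM with hairpin 2, against 145, 146 and 144 CPM in shGFP cells, again with every knockdown library below. Its log2 fold change was -0.22 (SE 0.03) with hairpin 1 and -0.36 (SE 0.03) with hairpin 2, with adjusted p of 3.6e-07 and 3.0e-12 by edgeR. Among the bHLH partners that ID proteins bind, TCF12 fell by 0.24 on the log2 scale in the mean of both hairpins, TCF3 rose by 0.13, and TCF4, at 0.15, was not called. Of the 4 genes listed as ID4 and bHLH partners, 1 rose and 2 fell in that contrast (75% called, beside 45.5% of all genes tested).

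Per kb of exon ID1 was by far the most abundant of the 10 genes in each group, at 238 ± 4.41 CPM per kb with hairpin 1, 230.1 ± 2.39 with hairpin 2 and 319 ± 5.92 in shGFP cells (SD, n = 3). ID2 came next at 47.9 ± 1.42, 41.1 ± 1.35 and 69.8 ± 1.97 CPM per kb in the same order, and SMAD7 followed at 17.5 ± 0.140, 14.1 ± 0.644 and 15.8 ± 0.681. Below these, the order with hairpin 1 was TGFB1, LTBP3, INHBB, SMAD6, BMP2, BMP4 and ID3, and no neighbours overlapped. With hairpin 2 it was TGFB1, LTBP3, BMP2, INHBB, SMAD6, BMP4 and ID3, and the libraries of INHBB and SMAD6 overlapped. In shGFP cells it was BMP2, TGFB1, LTBP3, SMAD6, INHBB, BMP4 and ID3, and those of TGFB1 and LTBP3 overlapped.

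**Figure D3:**
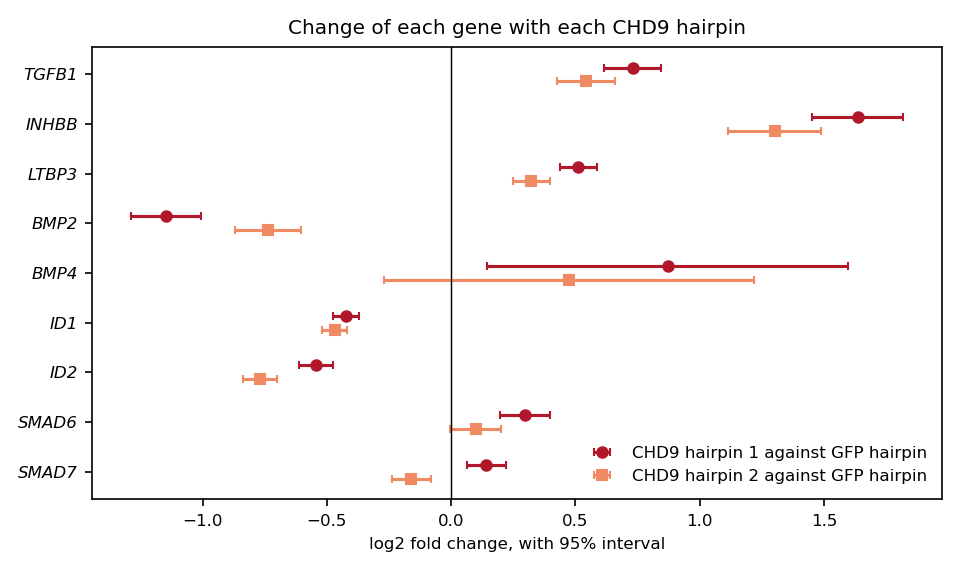
Log2 fold change of 9 genes with hairpin 1 (circles) and hairpin 2 (squares) against the GFP hairpin, with 95% intervals from the edgeR quasi-likelihood fit as bars. INHBB, TGFB1 and LTBP3 lay to the right of 0 and BMP2, ID1 and ID2 to the left with both hairpins, and the intervals of BMP4 were the widest.

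Counted together, 9 of the 10 genes passed the filter on low counts. In the mean of both hairpins 4 rose and 3 fell at an adjusted p under 0.05 by edgeR, which is 7 of 9, beside 45.5% of all 16855 genes tested. After the GC and length correction the split was 3 higher and 4 lower, beside 44.2% of all genes, SMAD6 no longer being called and SMAD7 being called lower at -0.13. With hairpin 1 there were 9 of 9 called, 6 higher and 3 lower, beside 47.3% of all genes, and with hairpin 2 there were 7 of 9, 3 higher and 4 lower, beside 35.7%. TGFB1, INHBB and LTBP3 rose and BMP2, ID1 and ID2 fell with each hairpin, which makes 6 genes called the same way in both contrasts, beside 26.8% of all genes. These contrasts share the shGFP libraries. In 7 genes, these and SMAD6, no knockdown library overlapped the shGFP range and all 6 lay on the same side of it, which held for 31.7% of all genes. The median size of the log2 fold change over the 9 genes, regardless of sign, was 0.64 in the mean of both hairpins, and 0.17 over all genes tested. When a change of at least 1.5-fold was required (edgeR's glmTreat), 3 of the 9 genes were called with hairpin 1, namely INHBB, BMP2 and TGFB1, beside 3.73% of all genes, and 2 with hairpin 2, INHBB and ID2, beside 1.44%. In the mean of both hairpins it was INHBB and BMP2, beside 2.35% of all genes.

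The hairpins differed from each other for most of these genes. In the direct comparison of hairpin 1 with hairpin 2, 7 of 9 genes were called by edgeR, 6 higher and 1 lower with hairpin 1, beside 29.2% of all genes. For INHBB, TGFB1, LTBP3 and BMP2 the libraries of hairpin 1, which also had the lower CHD9, lay further from shGFP than those of hairpin 2, by a log2 difference of 0.33 (SE 0.08), 0.19 (SE 0.05), 0.19 (SE 0.04) and -0.41 (SE 0.07), with adjusted p of 6.9e-04, 0.0051, 4.5e-05 and 2.0e-05. ID2 went the other way, closer to shGFP with hairpin 1 by 0.23 (SE 0.04, edgeR adjusted p = 1.7e-06). SMAD6 and SMAD7 were higher with hairpin 1 than with hairpin 2 by 0.20 (SE 0.05) and 0.30 (SE 0.04), with adjusted p of 0.0012 and 3.8e-08 by edgeR. For ID1 the difference was 0.05 with a 95% interval of -0.01 to 0.10, and for BMP4 it was 0.40 with an interval of -0.27 to 1.07. After the GC and length correction the differences of TGFB1 (0.10, adjusted p = 0.16), LTBP3 (0.06, adjusted p = 0.17) and SMAD6 (0.12, adjusted p = 0.058) were no longer called, leaving 4 genes, 3 higher and 1 lower with hairpin 1, beside 26.4% of all genes, and with a minimum change of 1.5-fold (glmTreat) none of the 9 was called, beside 0.202% of all genes. The share of CHD9 in these differences was not tested.

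Around the 10 genes, 104 other genes of the pathway were listed by role, of which 75 could be tested. In the mean of both hairpins 26 of the 75 were higher and 18 lower by edgeR, 58.7% in all, beside 45.5% of all genes tested, and the rest did not pass. Their median log2 fold change was 0.08, and 0.00 over all genes tested. With hairpin 1 there were 26 higher and 18 lower, 58.7% beside 47.3% of all genes. With hairpin 2 there were 21 higher and 14 lower, 46.7% beside 35.7%. Between the hairpins 11 were higher with hairpin 1 and 11 lower, 29.3% beside 29.2%. The lists were chosen with earlier results of these data known, so these shares and those of single lists are descriptions only. Values below are the log2 fold change in the mean of both hairpins unless stated. They carry no GC and length correction, which lowered the rise of LTBP3, and its effect on single pathway genes is not given here. Each list is described by its counts alone, to be read against the 45.5% of all tested genes called in that contrast.

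**Figure D4:**
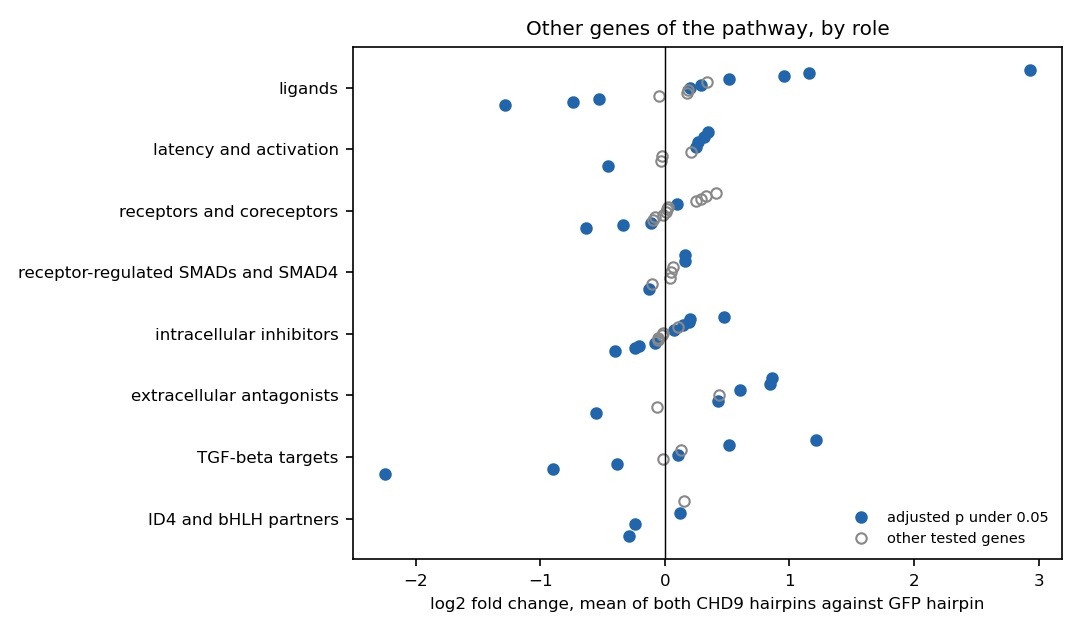
Log2 fold change of 75 tested genes of the pathway in the mean of both CHD9 hairpins against the GFP hairpin (horizontal axis), in rows by role. Filled points have an edgeR adjusted p under 0.05 and open points do not. Ligands and TGF-beta targets spread to both sides and receptor-regulated SMADs stayed within 0.2 of 0.

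Of the other ligands, 13 of 26 were expressed enough to test, and 6 rose and 3 fell (69.2% called, beside 45.5% of all genes). GDF11, a relative of myostatin, rose by 0.51 (SE 0.04), with a mean of 72.1 ± 1.58 CPM with hairpin 1 and 69.0 ± 1.75 with hairpin 2, against 49.4 ± 3.03 in shGFP cells (SD, n = 3). AMH, the anti-Mullerian hormone, fell by 0.53 (SE 0.09), to 11.4 ± 0.347 CPM with hairpin 1 and 11.7 ± 2.74 with hairpin 2, against 16.7 ± 1.20. TGFB2, which encodes TGF-beta 2, and GDF7, a BMP ligand, rose by 1.15 (SE 0.27) and 2.93 (SE 0.75), but both were scarce. TGFB2 was at 1.67 CPM with hairpin 1 and 0.766 CPM in shGFP cells. GDF7 had 12, 10 and 3 counts with hairpin 1 and 4, 15 and 11 with hairpin 2, against 1, 2 and 0 in shGFP cells. It passed the filter on low counts only through knockdown libraries, so its rise and its place among the 6 are descriptions only. INHBA, which encodes the beta A subunit of activin A and is named here after its values were seen, was also scarce. It had 3, 3 and 8 counts with hairpin 1 and 15, 29 and 22 counts with hairpin 2, against 18, 31 and 19 counts in shGFP cells, and its log2 fold change was -2.30 (SE 0.44, edgeR adjusted p = 2.8e-05) with hairpin 1 and -0.26 (SE 0.34, adjusted p = 0.59) with hairpin 2.

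Among 8 tested genes of latency and activation, 4 rose and 1 fell (62.5% called, beside 45.5%). LTBP4, another latent TGF-beta binding protein, rose by 0.27, BMP1, a protease that cleaves LTBPs and procollagens, by 0.31, and PCSK6, a proprotein convertase, by 0.34. FURIN, the convertase that cleaves the TGF-beta 1 precursor, fell by 0.45 (SE 0.03), with 85.7, 81.3 and 80.6 CPM with hairpin 1 and 74.0, 73.9 and 72.4 CPM with hairpin 2, against 106, 113 and 101 CPM in shGFP cells. All 6 knockdown libraries were below all shGFP libraries for FURIN.

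Of 14 tested receptors and coreceptors, 1 rose and 3 fell (28.6% called, beside 45.5%). TGFBR2, the type II receptor for TGF-beta, had 5.70, 5.20 and 6.30 CPM with hairpin 1 and 4.99, 4.53 and 4.90 CPM with hairpin 2, against 6.68, 8.64 and 8.86 CPM in shGFP cells. Its groups did not overlap, and its log2 fold change was -0.50 (SE 0.12) with hairpin 1 and -0.76 (SE 0.12) with hairpin 2, with edgeR adjusted p of 6.8e-04 and 2.4e-06. ACVR1, a type I receptor for BMPs, fell by 0.34. For BMPR1A, another, the log2 fold change was -0.23 (edgeR adjusted p = 5.3e-04) with hairpin 1 and 0.01 (adjusted p = 0.95) with hairpin 2, and for ACVR1B, the type I receptor for activin, it was 0.21 (adjusted p = 2.3e-05) and -0.01 (adjusted p = 0.82), and both genes differed between the hairpins, with adjusted p of 6.6e-04 and 1.5e-05. TGFBR1, the partner of TGFBR2, had 9.41, 10.97 and 10.8 CPM with hairpin 1 and 14.1, 14.4 and 15.5 CPM with hairpin 2, against 13.5, 13.0 and 13.1 CPM in shGFP cells. Its hairpin 1 libraries were all below shGFP and its hairpin 2 libraries all above, with log2 fold changes of -0.34 (SE 0.09, edgeR adjusted p = 0.0012) and 0.15 (SE 0.08, adjusted p = 0.17) and a difference of -0.49 (SE 0.08, adjusted p = 1.3e-05) between the hairpins. BMPR2, the type II receptor for BMPs, was at -0.01 and was not called in any of the 4 contrasts.

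The receptor-regulated SMADs and their partners moved by little. SMAD2 and SMAD3 carry the TGF-beta and activin signal. SMAD2 rose by 0.12 with hairpin 1 and 0.21 with hairpin 2. SMAD3 rose by 0.25 with hairpin 1, and with hairpin 2 it was at 0.07 (edgeR adjusted p = 0.43), a difference between the hairpins with an adjusted p of 0.014. ZFYVE9, the anchor protein that presents them to the receptor, fell by 0.18 with hairpin 1 and was at -0.06 (edgeR adjusted p = 0.43) with hairpin 2, and the difference between the hairpins was not called. SMAD1 and SMAD5, which carry the BMP signal, were at -0.11 and 0.04, and the common partner SMAD4 was at 0.06, and none of these was called. mRNA levels do not report the phosphorylation through which SMADs act.

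Of 14 intracellular inhibitors, 5 rose and 4 fell (64.3% called, beside 45.5%). LEMD3, a nuclear envelope protein that restrains SMADs, fell by 0.64 (SE 0.04) with hairpin 1 and by 0.16 (SE 0.04) with hairpin 2. PMEPA1, an inhibitor that sequesters receptor-regulated SMADs and is induced by TGF-beta, rose by 0.65 (SE 0.08) and 0.31 (SE 0.08) in the same order, with 24.5, 22.3 and 22.5 CPM with hairpin 1 and 17.9, 16.9 and 20.2 CPM with hairpin 2, against 15.5, 15.3 and 13.5 CPM in shGFP cells. NEDD4L, a ubiquitin ligase for activated SMAD2 and SMAD3, fell by 0.21 and TOB1, a repressor of BMP signalling, rose by 0.15.

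Among extracellular antagonists, 7 of 17 could be tested, and 4 rose and 1 fell (71.4% called, beside 45.5%). FSTL3, a follistatin-like protein that binds activins, had 95.5, 95.8 and 89.7 CPM with hairpin 1 and 87.5, 85.8 and 80.2 CPM with hairpin 2, against 56.6, 59.3 and 59.3 CPM in shGFP cells, a log2 fold change of 0.61 (SE 0.04, edgeR adjusted p = 1.4e-18). FST, follistatin itself, fell by 0.55 (SE 0.11), to 3.58 ± 0.172 CPM with hairpin 1 and 4.67 ± 0.288 with hairpin 2, against 5.99 ± 0.478 in shGFP cells (SD, n = 3). These activin-binding proteins thus moved in opposite directions beside the rise of INHBB. CHRD, which encodes chordin and binds BMP2 and BMP4, rose by 0.86 (SE 0.14) in the mean of both hairpins. NBL1, another BMP antagonist, rose by 0.66 (SE 0.09) with hairpin 1 and was at 0.19 (SE 0.09, edgeR adjusted p = 0.10) with hairpin 2.

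Of 8 tested genes known as targets of TGF-beta in other cells, 3 rose and 3 fell (75% called, beside 45.5%). CCN2, a matricellular growth factor, fell by 2.24 (SE 0.26), with 7, 7 and 10 counts with hairpin 1 and 10, 21 and 9 counts with hairpin 2, against 43, 46 and 45 counts in shGFP cells. TAGLN, an actin-binding protein of smooth muscle, fell by 0.39 (SE 0.05), and SNAI1, a transcription factor that represses E-cadherin, rose by 1.21 (SE 0.20). SNAI1 was scarce, with 59, 91 and 74 counts with hairpin 1 and 78, 83 and 46 with hairpin 2, against 24, 31 and 30 in shGFP cells. COL1A1, a collagen chain, rose by 0.52 (SE 0.10). TGFBI, a matrix protein, was at 0.13 and was not called. The list did not move one way. COL1A1 is also 1 of the 5 fibroblast markers, 3 of which had counts in every library. They summed to 8.17 to 8.79 CPM with hairpin 1, 7.82 to 9.33 with hairpin 2 and 7.15 to 7.80 in shGFP cells. COL1A1 made up most of each sum, with means of 7.33, 7.07 and 5.03 CPM in the same order. The rise of the sums therefore came from COL1A1, which rose by more than the sums did. In group means, the other markers thus summed to less with each CHD9 hairpin than in shGFP cells. This difference was not tested. Of the other markers, PDGFRB reached at most 1.53 CPM and LUM 1.32, both in shGFP libraries. COL1A2 reached at most 0.277 CPM and DCN 0.0471, both in hairpin 2 libraries. The part of fibroblast markers in the COL1A1 result was not tested.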

How the data were processed

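RNA was sequenced in 9 libraries of 22Rv1 cells. Per the labels' protocols, libraries were made with a directional kit from polyadenylated RNA. Per the submitters' processing notes, Trim Galore, STAR, DESeq2 and the build hg38 were used; for versions, read counter, strand setting and annotation the sources used here give nothing. The authors deposited a single table of raw counts per gene, not normalised or pooled.

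Of 67071 identifiers, 60704 were given a symbol from a gene name table or GENCODE 29, whose GRCh38 coordinates and exon lengths are used. Genes were kept by filterByExpr (minimum count 10) in edgeR 4.0.16 under R 4.3.3, leaving 16855. A quasi-likelihood model with TMM scaling and a mean per group was fitted to all 9 libraries, with Benjamini-Hochberg adjustment over all tested genes and a threshold of 0.05. The test was tried on simulated data. SE is the fold change over the root of F. Floors cover counting error only. Alternatives used DESeq2 1.42.0, limma 3.58.1, other filters, thresholds and samples, a replicate block, and GC content and length (known for 97.8% of tested genes).

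The 10 genes and the pathway lists were chosen with earlier results of these data known. Named genes are all 10, from each list the 4 genes ranked lowest by p in the mean of both hairpins, and the 5 closest to INHBB. INHBA, INHA, TGFBI, TGFBR1, BMPR2, SMAD1, SMAD4, SMAD5 and TCF4 were added after their values were seen, where the list rule had not named them.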

Additional observations from a re-analysis of the deposited data

Results flagged for a closer look

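The same contrast, CHD9 knockdown against shGFP, gave different sizes with the 2 hairpins for 7 genes, by edgeR's quasi-likelihood test of hairpin 1 against hairpin 2 over all genes. Hairpin 1 minus hairpin 2, the log2 differences were 0.19 for TGFB1, 0.33 for INHBB, -0.41 for BMP2, 0.19 for LTBP3, 0.20 for SMAD6, 0.30 for SMAD7 and 0.23 for ID2. For TGFB1, INHBB, LTBP3, SMAD6 and BMP2 the larger change came with hairpin 1, and for ID2 with hairpin 2. SMAD7 was above shGFP with hairpin 1 and below it with hairpin 2. Between the hairpins CHD9 mRNA had a log2 difference of -0.28 (SE 0.07, lower with hairpin 1), and its part in these differences was not tested. Groups of 3 libraries were too small to call a single library an outlier, and fits that left out single libraries are described below.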

How the results depend on the processing

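Over the 10 genes and the alternatives that gave a value, 630 fold changes kept their direction and side of the threshold, 34 kept their direction and lost the call, 2 gained it and 4 turned sign, and of the counts of called genes 141 stayed within 1.5 times. TGFB1, INHBB, LTBP3, BMP2, ID1 and ID2 kept their direction against shGFP in every alternative tried. Under a minimum fold change of 1.5 (glmTreat) the genes called fell to 2 in the mean of both hairpins, 3 with hairpin 1, 2 with hairpin 2 and 0 between the hairpins, and the other pathway genes called to 3, 3, 1 and 0; a smaller change cannot pass this test by its construction. With the GC content and length correction the genes called between the hairpins were 4, the split in the mean of both hairpins was 3 higher and 4 lower, and SMAD7 with hairpin 1 turned to -0.0106; the cause was not tested. Leaving out single libraries, the mean value of SMAD7 ranged from -0.0285 to 0.0274, above 0 without shCHD9_2 replicate 3 and without shGFP replicate 2, and the difference of BMP4 between the hairpins from -0.0326 (without shCHD9_1 replicate 3) to 0.63; without shCHD9_2 replicate 1 BMP4 was called in the mean of both hairpins (edgeR adjusted p = 0.049). Deviations of same-numbered libraries correlated by -0.03 to 0.04 (9 pairs), so no pairing by number was detected. The check cannot tell whether the numbers mark shared cultures or days, which the labels do not state. With the replicate block the genes called were 7, 9, 7 and 7 and the other pathway genes 43, 44, 35 and 22 (mean of both, hairpin 1, hairpin 2, between hairpins). At 8 to 42 counts, BMP4 is limited by depth, and ID3 could not be tested.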
